A study of Mus musculus with 12 samples.

Results

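Gene symbols that end in os name transcripts of the strand opposite to a gene, the gene whose symbol is left when os is taken away (the stem gene). Scpep1os, for example, is named for the opposite strand of Scpep1. Of 24552 symbols in the counts, 134 ended exactly in lower-case os. Fos, Mos and Icos, whose names only happen to end that way, and Zeb2os and Il1bos were left out, and the 129 other symbols are described here with their stem genes. Of these 129, 61 had counts and 68 were at 0 in all 12 libraries. Zeb2os and Il1bos have the ending and are left out by the rule, which uses names and no measured value.

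RNA was sequenced from bone marrow-derived macrophages of the mouse, which are macrophages grown from bone marrow in the growth factor M-CSF, here for 6 days at 10 ng/ml. Cells received vehicle (DMSO) or 50 nM ISRIB for 1 h, and M1-like cells were then given LPS at 10 ng/ml and IFN-γ at 25 ng/ml for 16 h with vehicle or ISRIB still present. ISRIB is a small molecule that blocks the integrated stress response, a pathway by which stressed cells lower protein synthesis. The 4 groups were M0 and M1 cells with vehicle and M0 and M1 cells with ISRIB, 3 libraries each, that the titles call biological replicates. The labels say neither what M0 cells received during the stimulation nor the strain, sex or age of the mice, and they do not say whether replicates came from separate animals. The p-values below therefore measure the spread between these libraries, which may be technical.

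Opposite-strand transcripts are a mixed class. Some start at the same promoter as the stem gene and run away from it, some run into its end or lie inside it, and a few are ordinary protein-coding genes that overlap or adjoin a neighbour. Most do not encode a protein, and some are known to act on the gene they overlap, while for many no function is known. A read from the overlapping bases belongs to one transcript or the other only by its strand, so a count at such a symbol depends on how strand was used in counting. The libraries were made with a strand-specific kit, per the labels, and the strand setting of the counting is not given in the sources used here. It therefore cannot be told whether a count at an os symbol holds reads of the os transcript or of the gene opposite. The setting may have been the opposite of the kit's, and a count at an os symbol would then be a read of the gene on the other strand. Every value below is a count at a symbol and is not assigned to either strand.

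The annotation (GENCODE M21, build GRCm38, the build called mm10) located 124 of the 129 symbols, 123 by their own name and Chd3os under its newer name. It lists 91 of the 124 as antisense, 16 as protein coding, 7 as long intergenic RNA, 7 as processed transcript, 2 as long RNA of a bidirectional promoter and 1 as a transcribed unitary pseudogene. A stem gene was found in the table for 122 symbols. No stem gene was found for 7: Nrros, Mocos, Selenos, Mios, Otos and Uros, protein-coding genes whose names end in os by chance, and G6bos. In 37 pairs the os gene and the stem gene overlapped across their starts, in 30 the os gene lay inside the stem gene, in 13 they overlapped across their ends, and in 6 the stem gene lay inside the os gene. In 25 pairs they were apart with their starts facing, and in 7 they were apart with their ends facing.

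In the bases that an os transcript and its stem gene share, a read is told apart by its strand alone. Each sequence below is part of an exon of the os transcript, 5′ to 3′ on its own strand in GRCm38. Capitals mark the bases that lie opposite a coding exon of the stem gene, and lower case marks up to 15 bases of the os exon beside them. One such stretch with the stem gene is shown for each of 7 os symbols with many counts. The pairs coincide over a small part of their length only. The exon overlap of these 7 pairs covered from 0.624% (Rptor) to 8.84% (Slfn5) of the exon bases of the stem gene. Slfn5os has 2 more that are not printed, 482 bases opposite Slfn5 (chr11:82960005-82960486) and 151 bases opposite Unc45b. No table places reads along a transcript, so the part of the counts that came from these bases was not tested.
Scpep1os: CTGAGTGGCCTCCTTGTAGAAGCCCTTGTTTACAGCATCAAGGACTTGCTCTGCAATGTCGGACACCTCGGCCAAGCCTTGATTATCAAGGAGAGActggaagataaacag
Slfn5os: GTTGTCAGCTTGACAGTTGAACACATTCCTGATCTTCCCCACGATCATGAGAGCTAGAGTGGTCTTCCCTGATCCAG
Rab10os: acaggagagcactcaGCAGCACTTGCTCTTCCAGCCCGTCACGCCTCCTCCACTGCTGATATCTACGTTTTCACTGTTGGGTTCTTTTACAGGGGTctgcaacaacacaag
Far1os: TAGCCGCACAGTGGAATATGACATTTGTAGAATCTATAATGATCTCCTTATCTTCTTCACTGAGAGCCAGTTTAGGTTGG
Cebpzos: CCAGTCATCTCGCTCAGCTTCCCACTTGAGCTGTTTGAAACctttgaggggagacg
Arhgap15os: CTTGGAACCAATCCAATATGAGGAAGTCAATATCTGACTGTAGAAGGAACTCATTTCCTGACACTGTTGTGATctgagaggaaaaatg
Rptoros: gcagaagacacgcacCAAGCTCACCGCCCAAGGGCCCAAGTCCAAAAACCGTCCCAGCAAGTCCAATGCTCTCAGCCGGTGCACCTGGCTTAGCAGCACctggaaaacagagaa
The capitals of Scpep1os cover chr11:88935856-88935951, those of Slfn5os chr11:82960605-82960681, those of Rab10os chr12:3249790-3249870 and those of Far1os chr7:113540607-113540686. Those of Cebpzos cover chr17:78919977-78920017, those of Arhgap15os chr2:44063762-44063834 and those of Rptoros chr11:119821661-119821744. The reverse complement of the capitals was found in a transcript of the overlapped gene for all 49 shared coding stretches of 40 or more bases that were read from the annotation.

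Total counts per library ranged from 439976 to 514037, over 4791 to 5665 symbols. Levels are given as CPM, which puts libraries of unequal totals on one scale with TMM factors, and 1 count in a library stood for 1.79 to 2.57 CPM. A value of 0 allows a share of up to 0.000584% to 0.000682% of a library, 3 counts in each case, and such limits cover counting error only. All 10 macrophage markers had counts, 3362 in total and 1841 of them at Lyz2. Their summed CPM was 535 to 857 in vehicle M0 and 447 to 695 in ISRIB M0. In M1 it was 319 to 683 with vehicle and 466 to 622 with ISRIB. Cd3e, Cd3d and Cd8a of T cells, Ms4a1 of B cells, Ly6g and Elane of neutrophils, Flt3 and Zbtb46 of dendritic cells and all 4 fibroblast markers were at 0 in all 12 libraries. The other members of these lists had few counts over the 12 libraries: 2 at Cd4, 11 at Cd79a, 6 at the neutrophil markers S100a8 and S100a9, and 3 at Siglech of dendritic cells. Only 4791 to 5665 of 24552 symbols had counts in a library, so a 0 does not show that a cell type was absent. The summed CPM of 7 M1 markers was 0 to 4.05 in vehicle M0, 0 to 11.2 in ISRIB M0, 501 to 929 in vehicle M1 and 866 to 1210 in ISRIB M1. In bulk RNA, fewer cells of a kind and less RNA per cell cannot be told apart.

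Counts at os symbols lay almost wholly at those whose exons overlap an exon of a gene on the other strand. Of the 71 located symbols with such an overlap, 44 had a count and 27 had at least 100. Their median was 11.0 counts over the 12 libraries, the highest was 31037, at Scpep1os, and their sum was 174794. Of the 53 located symbols without such an overlap, 13 had a count and 0 had at least 100. Their median was 0.0, the highest was 75, at Slc7a6os, and their sum was 199. The 5 symbols that were not located held 1524 counts, 1507 of them at Ggnbp2os. Over all 24147 located symbols of the table, the 24.1% with an exon overlap on the other strand held 92.3% of the counts, so the same skew is present in the table at large. The plot of counts by overlap shows this split.

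**Figure D1:**
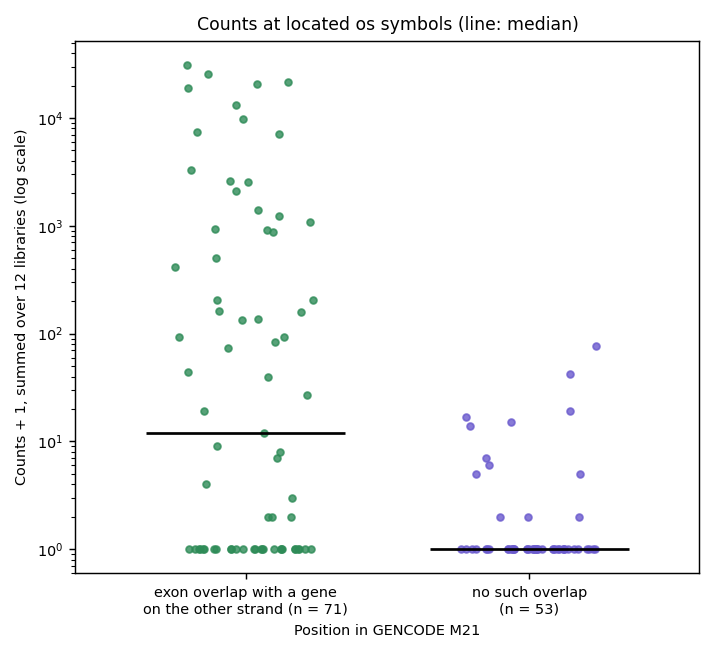
Counts + 1 summed over the 12 libraries (log axis) for the 124 os symbols located in the annotation, 1 point per symbol, split by whether an exon overlaps an exon of a gene on the other strand. The line is the median, at 11.0 counts for the 71 symbols with an overlap and 0.0 for the 53 without, of which 0 reach 100 counts.

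Counts were mostly at the os symbol and not at the gene it is named for. The 129 os symbols held 176517 counts and their 122 stem genes held 13226, at 58 of them. Among the 42 pairs with 10 or more counts at the os symbol, the os symbol was above its stem gene in 34. That choice of pairs favours the os symbol, since it leaves out pairs whose os symbol is low. Among the 34 pairs with 100 or more counts in all, the os symbol was above in 24 and the stem gene in 10. Scpep1os had 31037 counts and Scpep1, which encodes a serine carboxypeptidase of the lysosome, had 86. Far1os had 3279 counts against 1 at Far1, a fatty acyl-CoA reductase of ether lipid synthesis. Acss2os had 907 against 0 at Acss2, which makes acetyl-CoA from acetate. The plot of each os symbol against its stem gene shows most points with counts above the line of equality. Cebpzos lies a little below it, and Wdr83os, Dgkeos and Ccpg1os lie well below it.

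**Figure D2:**
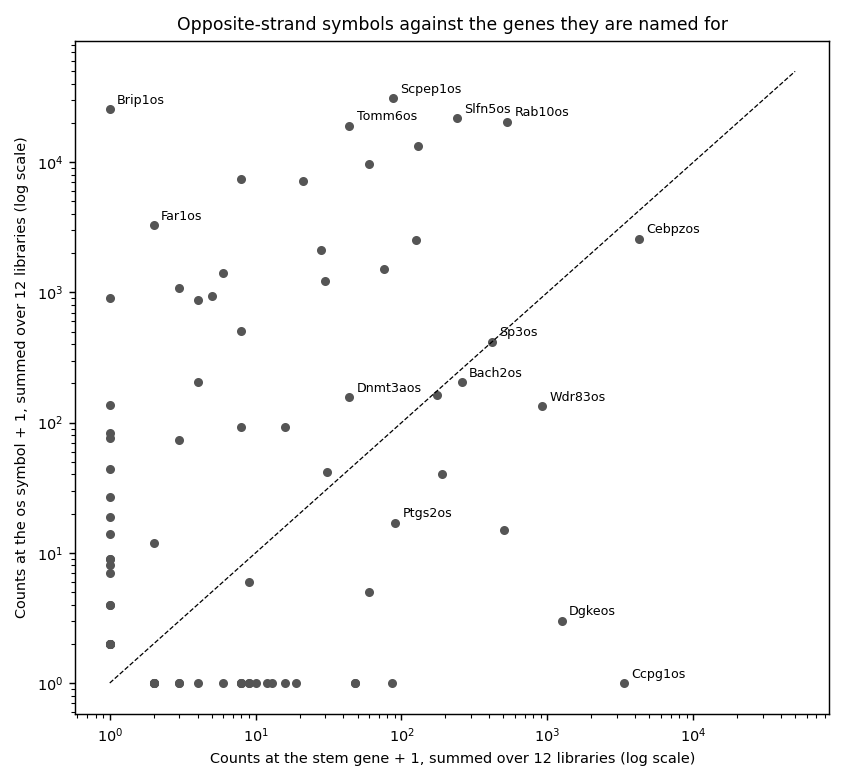
Counts + 1 at each os symbol (vertical, log axis) against counts + 1 at its stem gene (horizontal, log axis), summed over the 12 libraries, 1 point per pair; the dashed line marks equal counts. Brip1os and Far1os stand near the vertical axis, with 0 and 1 counts at the stem gene, and Ccpg1os lies on the horizontal axis with 0 counts.

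The os symbols took 2.60% ± 0.0483 (SD, n = 3) of all counts in vehicle M0 and 3.57% ± 0.183 in vehicle M1. With ISRIB they took 2.61% ± 0.0444 in M0 and 3.58% ± 0.0957 in M1. The 6 M0 libraries lay between 2.567% and 2.662%, and the 6 M1 libraries between 3.369% and 3.722%, so the M0 and M1 libraries did not overlap. The stem genes took 0.274% ± 0.0263 (vehicle) and 0.259% ± 0.0164 (ISRIB) in M0, and 0.194% ± 0.0102 and 0.195% ± 0.0125 in M1. As shares of library totals, their M0 libraries again did not overlap their M1 libraries, in the opposite order. In TMM-scaled CPM the stem genes summed to 2530 in M0 and 2212 in M1 with vehicle, as means of 3 libraries. With ISRIB they summed to 2391 and 2209, and on that scale the ISRIB M0 and ISRIB M1 libraries overlapped. Of the 13226 counts at stem genes, Cebpz held 4229 and Ccpg1 held 3335. The 5 os symbols with the most counts in a library held 61.4% to 63.7% of its os counts in M0 and 71.4% to 75.4% in M1.

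The filter on low counts kept 2356 of the 24552 symbols for testing, and 31 of the 129 os symbols were among them. These 31 held 176052 counts, 99.7% of those at os symbols. The filter takes symbols that are high in any group, so the 31 are not a sample of the class. Of the 31, 30 were located, each with an exon overlap on the other strand, and in 29 this overlap was with the stem gene. The share with such an overlap among all 2356 tested symbols was not computed. Symbols with an overlap held 92.3% of the counts at located symbols, so a filter on counts favours them in any class. In 24 of the 31 the os symbol held at least 90% of the pair's counts, and in 13 the stem gene had at most 10 counts.

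In vehicle-treated cells M1 polarization was accompanied by higher counts at Slfn5os, Brip1os, Phtf1os, Rbm3os, Rab10os, Ppifos and Acss2os and lower counts at Fam219aos, Man2c1os, Arhgap15os, Bach2os, Dnmt3aos and others. Of the 31 tested os symbols, 19 passed the threshold of 0.05 on the adjusted p of edgeR's quasi-likelihood test, which is 61.3%, against 44.8% of all 2356 symbols. Of the 31, 8 were higher (25.8%, against 24.3% of all symbols) and 11 lower (35.5%, against 20.5%). With libraries scaled by their totals alone the calls over all symbols were 461 higher and 655 lower, in place of 572 and 483, and the os calls were 7 higher and 11 lower. The median log2 fold change of the os symbols was -0.35, and that of all symbols was 0.01. The median size of the change without its sign was 1.16 for the os symbols and 0.97 for all symbols. The library values of M0 and M1 did not overlap for 21 of the 31, against 52.7% of all symbols. The os symbols called are read against that background and not set apart from it by any test.

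The same contrast in ISRIB-treated cells uses other libraries. There 20 of the 31 passed the threshold, 64.5% against 44.8% of all symbols, with 8 higher (25.8%, against 23.9%) and 12 lower (38.7%, against 20.9%). Scaling by library totals gave 436 higher and 672 lower over all symbols, in place of 563 and 492, and 7 and 14 among the os symbols. The median log2 fold change was -0.37 for the os symbols and -0.01 for all symbols. The median size without its sign was 0.85 for the os symbols and 0.95 for all symbols, the opposite order to that with vehicle. Ranges did not overlap for 21 of the 31, against 55.2% of all symbols. The 2 contrasts shared 17 called os symbols, 89.5% of the vehicle calls and 85% of the ISRIB calls, and all 17 had the same direction in both, 7 higher and 10 lower.

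**Figure D3:**
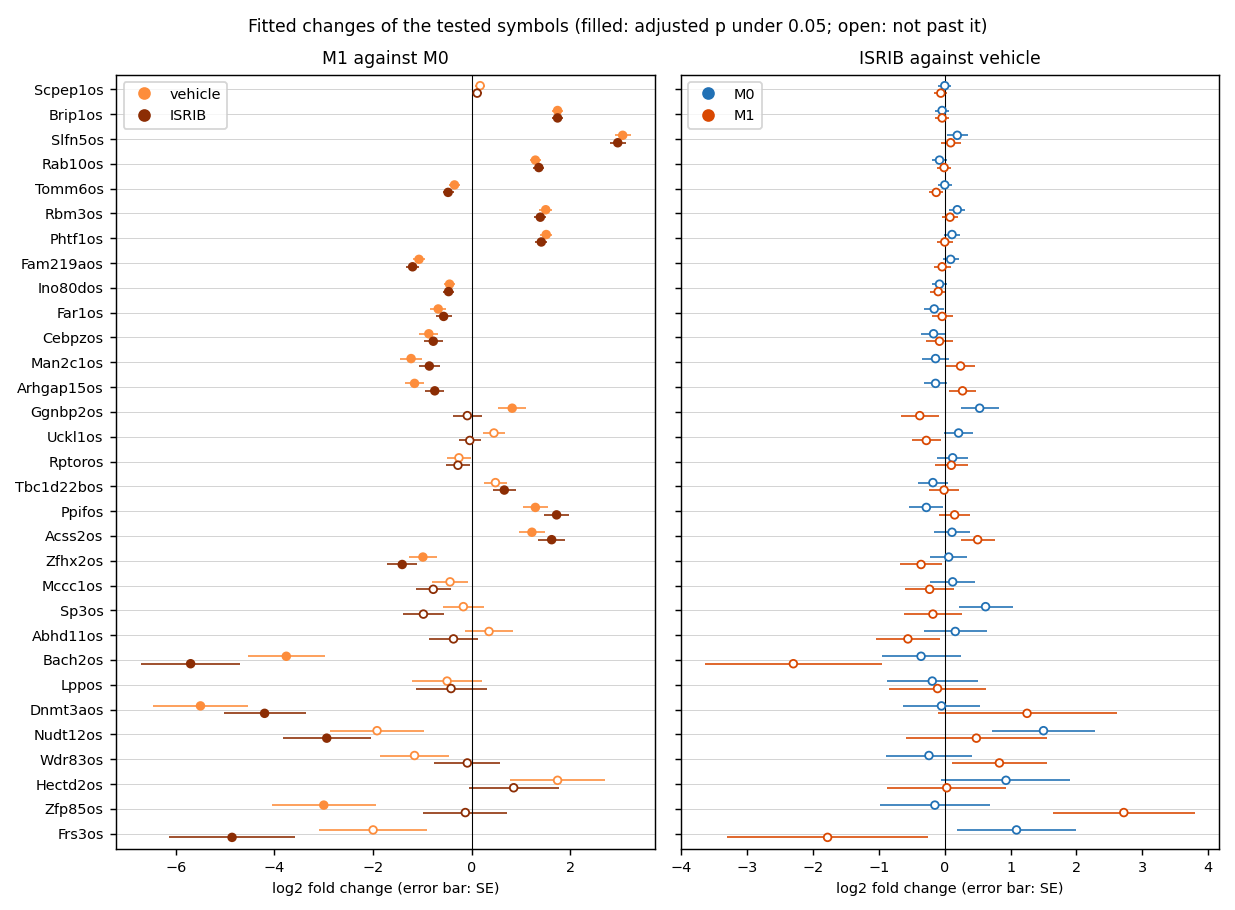
Fitted log2 fold changes of the 31 tested os symbols, ordered by total counts, with the SE as the error bar; filled points passed an adjusted p of 0.05. The left panel gives M1 against M0 in vehicle and ISRIB, with 19 and 20 filled points; the right panel gives ISRIB against vehicle in M0 and M1, with 0 filled points.

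The largest called increase of an os symbol in either contrast was at Slfn5os (chr11:82942341-82960681, minus strand), named for Slfn5, an interferon-induced member of the Schlafen family. Slfn5os had 610, 391 and 397 counts in M0 and 3130, 2537 and 3186 in M1 with vehicle, and 599, 420 and 537 in M0 and 3349, 3480 and 3071 in M1 with ISRIB. The highest M0 library had 610 counts and the lowest M1 library had 2537. It rose by a log2 fold change of 3.06 ± 0.16 (adjusted p = 2.23e-14) with vehicle and 2.96 ± 0.16 (adjusted p = 4.05e-14) with ISRIB, where each value after ± is the SE.

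Brip1os (chr11:86201370-86304443, plus strand) starts 176 bases from Brip1, a DNA helicase gene of double-strand break repair. Its exons do not touch those of Brip1 and lie opposite 800 bases of Med13 and 512 bases of Ints2, which encode a subunit of Mediator and a subunit of the Integrator complex. Brip1os had 1072, 1256 and 1274 counts in M0 and 3345, 2531 and 3280 in M1 with vehicle, and 1101, 1167 and 1179 in M0 and 3291, 3073 and 2973 in M1 with ISRIB. Brip1 had 0 counts in all 12 libraries, Med13 had 95 in total and Ints2 had 599. The M1 libraries were all above the M0 libraries, by 1.74 ± 0.12 (adjusted p = 2.55e-12) with vehicle and 1.74 ± 0.12 (adjusted p = 2.76e-12) with ISRIB.

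Rab10os (chr12:3235504-3250377, plus strand) overlaps the end of Rab10, a small GTPase of membrane traffic, over 143 exon bases. It had 1275, 1145 and 1150 counts in M0 and 2296, 2062 and 2277 in M1 with vehicle, and 1071, 999 and 1242 in M0 and 2290, 2316 and 2342 in M1 with ISRIB. Rbm3os (chrX:8145429-8147964, plus strand) overlaps the start of Rbm3, which encodes a cold-inducible RNA-binding protein. It had 731, 593 and 660 counts in M0 and 1517, 1365 and 1390 in M1 with vehicle, and 711, 835 and 684 in M0 and 1654, 1768 and 1345 in M1 with ISRIB. For both, every M1 library was above every M0 library. Rab10os rose by 1.29 ± 0.11 (adjusted p = 1.86e-10) with vehicle and 1.36 ± 0.11 (adjusted p = 6.64e-11) with ISRIB. The increase of Rbm3os was 1.50 ± 0.13 (adjusted p = 1.86e-10) with vehicle and 1.39 ± 0.12 (adjusted p = 7.61e-10) with ISRIB.

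Phtf1os (chr3:103964536-103968581, minus strand) overlaps the start of Phtf1 over 448 exon bases and the neighbouring gene Rsbn1 over 2101. Phtf1os had 550, 562 and 399 counts in M0 and 1127, 1004 and 1117 in M1 with vehicle, and 545, 526 and 519 in M0 and 1176, 1062 and 1190 in M1 with ISRIB. It rose by 1.51 ± 0.12 (adjusted p = 1.24e-10) with vehicle and 1.41 ± 0.12 (adjusted p = 4.55e-10) with ISRIB, with no overlap between M0 and M1. Ppifos (chr14:25696974-25701282, minus strand) overlaps the end of Ppif, which encodes the mitochondrial cyclophilin D, and Acss2os (chr2:155547040-155556930, minus strand) lies inside Acss2. Ppifos had 51, 56 and 53 counts in M0 and 95, 125 and 75 in M1 with vehicle, and 33, 49 and 48 in M0 and 102, 124 and 123 in M1 with ISRIB. Acss2os had 42, 41 and 56 counts in M0 and 67, 68 and 114 in M1 with vehicle, and 41, 66 and 42 in M0 and 125, 109 and 136 in M1 with ISRIB. These 2 were lower in count than the 5 before them and again higher in every M1 library than in every M0 library of the same treatment. The change was 1.29 ± 0.25 (adjusted p = 0.000119) and 1.72 ± 0.25 (adjusted p = 2.82e-06) for Ppifos, with vehicle and ISRIB in that order, and 1.22 ± 0.27 (adjusted p = 0.000625) and 1.62 ± 0.27 (adjusted p = 1.82e-05) for Acss2os.

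Among the os symbols that fell, Tomm6os had the most counts. Tomm6os (chr17:47687610-47691083, plus strand) overlaps the start of Tomm6, a small subunit of the import channel of the outer mitochondrial membrane, over 219 exon bases, and Prickle4 over 1221. It had 2184, 1937 and 1923 counts in M0 and 1217, 1228 and 1150 in M1 with vehicle, and 2058, 1952 and 1913 in M0 and 1167, 1224 and 1085 in M1 with ISRIB. On the scaled values, in which 1 count is worth more in the M1 libraries, the level was 3803 ± 301.3 CPM (SD, n = 3) in vehicle M0 and 2989 ± 202.4 in vehicle M1. Tomm6os fell by 0.35 ± 0.11 on the log2 scale with vehicle (adjusted p = 0.0104) and by 0.48 ± 0.11 with ISRIB (adjusted p = 0.000794). The vehicle call was lost without vehicle M0 replicate 1 (-0.28, adjusted p = 0.0664) and without vehicle M1 replicate 3 (-0.28, adjusted p = 0.0711). Prickle4, which was below the filter, had 12, 0 and 16 counts in M0 and 1, 0 and 0 in M1 with vehicle, and 8, 10 and 6 in M0 and 0, 1 and 1 in M1 with ISRIB.

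Fam219aos (chr4:41517437-41518929, plus strand) overlaps the end of Fam219a over 469 exon bases. It had 1066, 887 and 733 counts in M0 and 327, 315 and 321 in M1 with vehicle, and 825, 996 and 984 in M0 and 297, 382 and 312 in M1 with ISRIB. The lowest M0 library had 733 counts and the highest M1 library had 382. The log2 fold change was -1.07 ± 0.13 (adjusted p = 1.22e-07) with vehicle and -1.20 ± 0.13 (adjusted p = 1.62e-08) with ISRIB. Ino80dos (chr1:63113078-63158290, plus strand), named for a subunit of the INO80 chromatin remodeller, overlaps the start of Ino80d over 431 bases and Ndufs1, a subunit gene of respiratory complex I, over 489. It had 864, 774 and 725 counts in M0 and 473, 423 and 413 in M1 with vehicle, and 665, 765 and 768 in M0 and 435, 412 and 439 in M1 with ISRIB. M0 and M1 did not overlap, and the change was -0.45 ± 0.12 (adjusted p = 0.00328) with vehicle and -0.47 ± 0.12 (adjusted p = 0.00228) with ISRIB.

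Far1os (chr7:113530489-113564987, minus strand) lies inside Far1, and Arhgap15os (chr2:44059238-44065324, minus strand) inside Arhgap15, which encodes a GTPase-activating protein for Rac. Far1os had 366, 455 and 338 counts in M0 and 188, 141 and 217 in M1 with vehicle, and 316, 345 and 354 in M0 and 158, 205 and 196 in M1 with ISRIB. Arhgap15os had 236, 302 and 257 counts in M0 and 91, 73 and 105 in M1 with vehicle, and 190, 257 and 265 in M0 and 85, 125 and 134 in M1 with ISRIB. Man2c1os (chr9:57099950-57131290, minus strand) overlaps the start of Man2c1, a cytosolic alpha-mannosidase, over 461 bases and Sin3a, a scaffold of histone deacetylase complexes, over 205. It had 241, 320 and 398 counts in M0 and 89, 135 and 86 in M1 with vehicle, and 245, 353 and 271 in M0 and 116, 126 and 146 in M1 with ISRIB. All 3 were lower in every M1 library than in every M0 library of the same treatment. Far1os changed by -0.68 ± 0.16 (adjusted p = 0.00078) and -0.57 ± 0.16 (adjusted p = 0.0043), with vehicle first. The values were -1.16 ± 0.19 (adjusted p = 1.62e-05) and -0.75 ± 0.19 (adjusted p = 0.00198) for Arhgap15os and -1.23 ± 0.22 (adjusted p = 3.7e-05) and -0.86 ± 0.21 (adjusted p = 0.00177) for Man2c1os.

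Zfhx2os (chr14:55053869-55075873, plus strand) shares 3255 exon bases with Zfhx2, a zinc finger homeobox gene, the longest overlap with a stem gene among the tested symbols. It had 78, 128 and 117 counts in M0 and 40, 41 and 42 in M1 with vehicle, and 87, 100 and 146 in M0 and 26, 53 and 23 in M1 with ISRIB, against 3 counts in all at Zfhx2. It fell in both contrasts, with -0.99 ± 0.29 (adjusted p = 0.00768) for vehicle and -1.41 ± 0.30 (adjusted p = 0.000414) for ISRIB. Dnmt3aos (chr12:3859293-3862244, minus strand) lies inside Dnmt3a, which encodes a de novo DNA methyltransferase. It had 33, 19 and 26 counts in M0 and 0, 0 and 1 in M1 with vehicle, and 25, 20 and 29 in M0 and 0, 2 and 1 in M1 with ISRIB. Dnmt3aos was 59-fold higher in vehicle M0 than in vehicle M1, on 78 against 1 counts, with a 95% exact counting interval of 10.3 to 2360. With ISRIB it was 20.1-fold higher in M0, on 74 against 3 counts, with an interval of 6.6 to 99.5. Its adjusted p was 4.17e-05 with vehicle and 0.000192 with ISRIB.

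A few calls were made in only one of the treatments, and the interaction of ISRIB with polarization passed the threshold for none of these symbols. Ggnbp2os, which was not located in the annotation, had 68, 117 and 123 counts in M0 and 86, 153 and 176 in M1 with vehicle, and 96, 214 and 135 in M0 and 75, 158 and 106 in M1 with ISRIB. It was higher in M1 with vehicle, by 0.82 ± 0.29 (adjusted p = 0.0227), and its value with ISRIB was -0.09 ± 0.29 (adjusted p = 0.824). The vehicle call was lost with scaling by library totals (0.52, adjusted p = 0.172), without vehicle M0 replicate 1 (adjusted p = 0.105), without vehicle M1 replicate 2 (0.0819) and without vehicle M1 replicate 3 (0.113). Its groups overlapped. Zfp85os (chr13:67729262-67756838, plus strand), named for a zinc finger gene, had 12, 15 and 8 counts in M0 and 2, 1 and 0 in M1 with vehicle, and 8, 14 and 9 in M0 and 2, 5 and 16 in M1 with ISRIB. It was 8.83-fold higher in vehicle M0 than in vehicle M1, on 35 against 3 counts, with a 95% exact counting interval of 2.78 to 44.9 and an adjusted p of 0.0230. That call was lost with no filter (adjusted p = 0.0529), without vehicle M0 replicate 2 (0.0648), without vehicle M1 replicate 2 (0.0583) and without vehicle M1 replicate 3 (0.0932). With ISRIB the change of Zfp85os was -0.13 ± 0.85 (adjusted p = 0.911).

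With ISRIB alone, Tbc1d22bos, Nudt12os and Frs3os passed. Tbc1d22bos (chr17:29578816-29596305, minus strand), inside a gene of the Rab GTPase-activating family, had 64, 101 and 101 counts in M0 and 91, 91 and 100 in M1 with vehicle, and 81, 77 and 72 in M0 and 96, 109 and 91 in M1 with ISRIB. Its change was 0.66 ± 0.23 (adjusted p = 0.0229) with ISRIB and 0.48 ± 0.23 (adjusted p = 0.0912) with vehicle, which passed without vehicle M0 replicate 3 (0.64, adjusted p = 0.0498). The ISRIB call was lost with scaling by library totals (0.37, adjusted p = 0.206), with no filter (0.59, adjusted p = 0.200), without ISRIB M0 replicate 2 (adjusted p = 0.0686) or 3 (0.0861), and without ISRIB M1 replicate 1 (0.0645) or 2 (0.0575). Nudt12os (chr17:58996251-59024981, plus strand), whose span holds Nudt12, an NADH diphosphatase gene, had 11, 6 and 14 counts in M0 and 0, 5 and 1 in M1 with vehicle, and 22, 44 and 23 in M0 and 2, 0 and 7 in M1 with ISRIB. Its change was -2.94 ± 0.89 (adjusted p = 0.00839) with ISRIB and -1.92 ± 0.96 (adjusted p = 0.109) with vehicle. The ISRIB call was lost without ISRIB M0 replicate 2 (-2.59, adjusted p = 0.0549), and with vehicle a call was gained without vehicle M1 replicate 2 (-3.74, adjusted p = 0.0255). Frs3os (chr17:47699971-47701996, minus strand), inside an adaptor gene of FGF receptor signalling, had 7, 4 and 11 counts in M0 and 0, 2 and 2 in M1 with vehicle, and 25, 8 and 13 in M0 and 0, 1 and 0 in M1 with ISRIB. It was 37.4-fold higher in ISRIB M0 than in ISRIB M1, on 46 against 1 counts, with a 95% exact counting interval of 6.39 to 1510 and an adjusted p of 0.00318. With vehicle its change was -2.00 ± 1.10 (adjusted p = 0.148).

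The most counted os symbol did not pass in either contrast. Scpep1os (chr11:88905928-88936061, plus strand), which meets Scpep1 end over end across the 96 bases printed above, had 2809, 2917 and 2675 counts in M0 and 2776, 2084 and 2309 in M1 with vehicle, and 2731, 2712 and 2790 in M0 and 2428, 2366 and 2440 in M1 with ISRIB. Its log2 fold change was 0.17 ± 0.10 (adjusted p = 0.189) with vehicle and 0.11 ± 0.10 (adjusted p = 0.41) with ISRIB, and both values turned negative with scaling by library totals (-0.13 and -0.18). Its groups overlapped in CPM in both treatments.

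The other 8 uncalled symbols had from 92 to 1412 counts in all. Uckl1os (chr2:181578480-181585170, plus strand), named for a uridine-cytidine kinase-like gene, had 81, 150 and 115 counts in M0 and 100, 118 and 140 in M1 with vehicle, and 104, 148 and 144 in M0 and 89, 121 and 102 in M1 with ISRIB. Rptoros (chr11:119820812-119834365, minus strand) lies inside Rptor, which encodes the raptor subunit of the growth-control complex mTORC1, and had 105, 123 and 130 counts in M0 and 60, 67 and 101 in M1 with vehicle, and 155, 100 and 125 in M0 and 71, 83 and 104 in M1 with ISRIB. Mccc1os (chr3:35999833-36025106, plus strand), named for a subunit gene of a leucine-degrading carboxylase, had 43, 65 and 54 counts in M0 and 46, 24 and 20 in M1 with vehicle, and 59, 59 and 54 in M0 and 21, 39 and 22 in M1 with ISRIB. In all 3 the CPM ranges of vehicle M0 and vehicle M1 overlapped, and the vehicle changes were 0.45 ± 0.22 (adjusted p = 0.101), -0.26 ± 0.25 (adjusted p = 0.416) and -0.44 ± 0.36 (adjusted p = 0.332). The ISRIB changes were -0.04 ± 0.22 (adjusted p = 0.888), -0.28 ± 0.24 (adjusted p = 0.372) and -0.78 ± 0.36 (adjusted p = 0.0782), and Mccc1os alone of the 3 passed with scaling by library totals (-1.06, adjusted p = 0.0177). Mccc1os also passed with ISRIB without ISRIB M1 replicate 2 (-1.06, adjusted p = 0.0429), and Uckl1os with vehicle without vehicle M0 replicate 2 (0.65, adjusted p = 0.0405).

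Sp3os (chr2:72979424-72988677, plus strand) overlaps the start of Sp3, a transcription factor that binds GC boxes, and had 23, 55 and 31 counts in M0 and 24, 17 and 32 in M1 with vehicle, and 27, 84 and 56 in M0 and 19, 32 and 17 in M1 with ISRIB. Abhd11os (chr5:135012114-135013253, minus strand), at a hydrolase gene, had 15, 22 and 18 counts in M0 and 16, 18 and 19 in M1 with vehicle, and 22, 21 and 17 in M0 and 10, 13 and 15 in M1 with ISRIB. Lppos (chr16:24391612-24393588, minus strand), at a LIM domain protein gene of focal adhesions, had 18, 15 and 22 counts in M0 and 10, 0 and 20 in M1 with vehicle, and 11, 16 and 21 in M0 and 8, 13 and 8 in M1 with ISRIB. Hectd2os (chr19:36614052-36705641, minus strand), at a ubiquitin ligase gene, had 8, 0 and 3 counts in M0 and 3, 8 and 18 in M1 with vehicle, and 6, 3 and 12 in M0 and 12, 13 and 6 in M1 with ISRIB. The CPM ranges of vehicle M0 and vehicle M1 overlapped in Sp3os, Lppos and Hectd2os and did not in Abhd11os. The change of Sp3os was -0.17 ± 0.42 (adjusted p = 0.765) with vehicle and -0.98 ± 0.42 (adjusted p = 0.0606) with ISRIB, and the latter passed with scaling by library totals (-1.27, adjusted p = 0.0180), without ISRIB M0 replicate 1 (-1.29, 0.0184) and without ISRIB M1 replicate 2 (-1.24, 0.0465). The vehicle and ISRIB changes were 0.35 ± 0.48 (adjusted p = 0.587) and -0.37 ± 0.49 (adjusted p = 0.565) for Abhd11os, -0.50 ± 0.71 (adjusted p = 0.596) and -0.42 ± 0.72 (adjusted p = 0.661) for Lppos, and 1.74 ± 0.97 (adjusted p = 0.152) and 0.85 ± 0.91 (adjusted p = 0.475) for Hectd2os. The plot of values by library shows the 31 symbols in order of their totals.

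**Figure D4:**
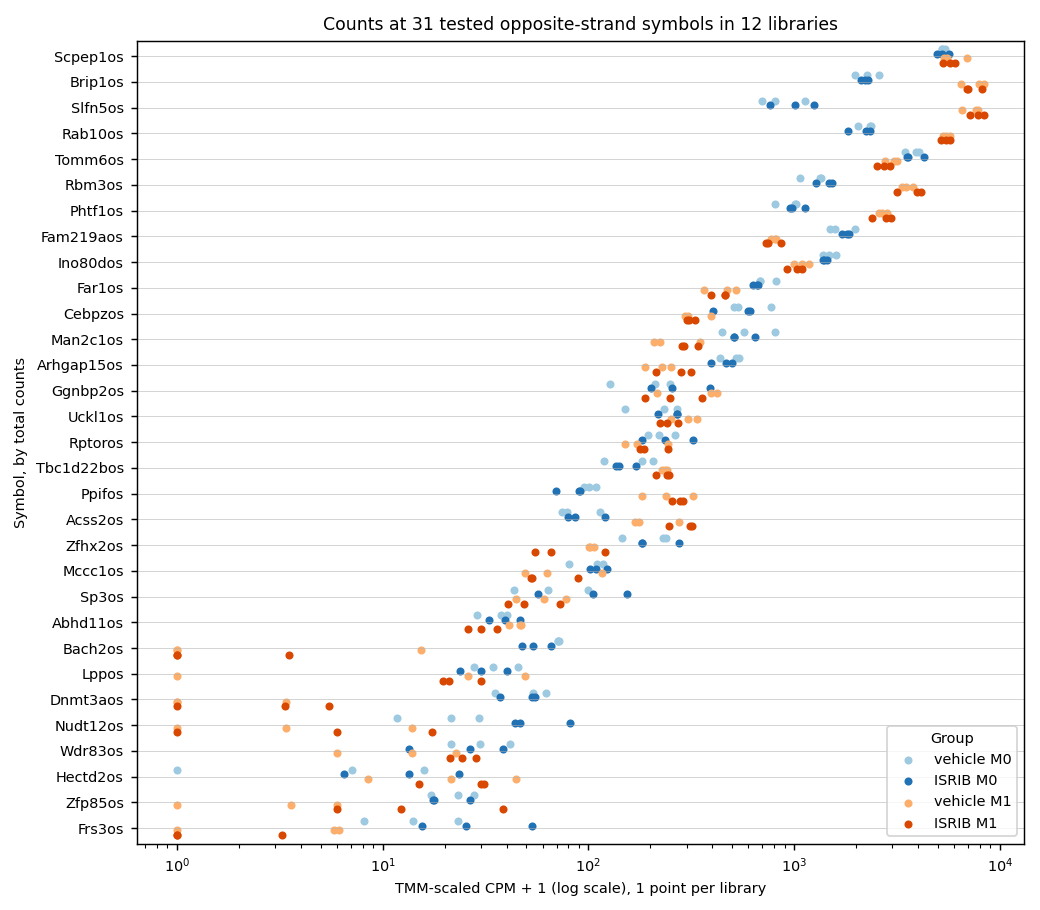
TMM-scaled CPM + 1 (log axis) of the 31 tested os symbols, 1 point per library, coloured by group and ordered by total counts. Blue M0 and orange M1 points stand apart for Brip1os, Slfn5os and Rab10os, lie together for Scpep1os, and reach 0 counts in M1 libraries for Bach2os and Dnmt3aos.

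In 10 pairs the os symbol and the stem gene were both tested. In 4 of the 10 both passed with vehicle (Slfn5, Rbm3, Cebpz and Bach2) and in 3 with ISRIB (Slfn5, Cebpz and Bach2), in the same direction each time. Calls were common: 44.8% of all symbols passed in each contrast. Among os symbols 19 of 31 passed with vehicle and 20 with ISRIB, and among stem genes 8 of 17 and 7. Joint calls can therefore occur in unlinked symbols, and whether pairs moved together more often than these was not tested. Slfn5 had 14, 1 and 0 counts in M0 and 32, 32 and 42 in M1 with vehicle, and 2, 13 and 1 in M0 and 28, 50 and 25 in M1 with ISRIB, and rose by 3.20 ± 0.76 (adjusted p = 0.00129) with vehicle and 2.96 ± 0.76 (adjusted p = 0.0024) with ISRIB. These log2 fold changes lay within 1 SE of those of Slfn5os, and 98.9% of the pair's counts were at Slfn5os. Rbm3 had 3, 3 and 10 counts in M0 and 10, 10 and 38 in M1 with vehicle, and 2, 9 and 3 in M0 and 19, 4 and 17 in M1 with ISRIB. It rose by 2.18 ± 0.80 (adjusted p = 0.0291) with vehicle, a call lost with scaling by library totals (1.90, adjusted p = 0.0580), with no filter (2.09, 0.0684), without vehicle M0 replicate 1 (0.0917) or 2 (0.0985) and without vehicle M1 replicate 3 (1.30, 0.302). With ISRIB the value was 1.83 ± 0.82 (adjusted p = 0.0742), which passed without ISRIB M0 replicate 2 (2.64, adjusted p = 0.0385) and without ISRIB M1 replicate 2 (2.29, 0.0286). Whether a gene and its os symbol share reads was not tested.

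Cebpz, which encodes a nuclear protein of ribosome formation, was the stem gene with the most counts, 4229 over the 12 libraries. Cebpzos (chr17:78916500-78920306, plus strand) is itself a protein-coding gene, for a small mitochondrial protein, and meets Cebpz end over end. Cebpzos had 415, 283 and 264 counts in M0 and 118, 153 and 126 in M1 with vehicle, and 294, 326 and 215 in M0 and 120, 137 and 141 in M1 with ISRIB. Cebpz had 570, 510 and 537 counts in M0 and 193, 220 and 150 in M1 with vehicle, and 456, 539 and 444 in M0 and 193, 227 and 190 in M1 with ISRIB. Both fell. Cebpzos changed by -0.87 ± 0.19 (adjusted p = 0.000651) with vehicle and -0.78 ± 0.19 (adjusted p = 0.00205) with ISRIB, and Cebpz by -1.12 ± 0.15 (adjusted p = 1.34e-06) and -0.94 ± 0.15 (adjusted p = 1.53e-05). The share of the pair at Cebpzos was 36.9% in M0 and 41.5% in M1 with vehicle, and 36.5% and 39.5% with ISRIB, as means of 3 libraries. Bach2, a transcriptional repressor known from lymphocytes, had 52, 42 and 32 counts in M0 and 0, 5 and 6 in M1 with vehicle, and 33, 47 and 35 in M0 and 0, 7 and 0 in M1 with ISRIB. Bach2os (chr4:32559680-32571708, minus strand), inside it, had 38, 39 and 35 counts in M0 and 0, 0 and 6 in M1 with vehicle, and 31, 29 and 25 in M0 and 1, 0 and 0 in M1 with ISRIB. Each gene of the pair had 25 to 52 counts in every M0 library and 0 to 7 in every M1 library. Bach2 changed by -3.08 ± 0.74 (adjusted p = 0.00131) with vehicle and -3.69 ± 0.79 (adjusted p = 0.000426) with ISRIB, and Bach2os by -3.76 ± 0.78 (adjusted p = 0.000305) with vehicle. With ISRIB, Bach2os was 69.1-fold higher in M0, on 85 against 1 counts, with a 95% exact counting interval of 12.1 to 2760 and an adjusted p of 4.98e-05.

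In other pairs one side moved without a call on the other. Man2c1os passed in both contrasts, and Man2c1 did not, at -0.79 ± 0.70 (adjusted p = 0.386) with vehicle and -0.98 ± 0.71 (adjusted p = 0.269) with ISRIB. Ggnbp2os passed with vehicle, and Ggnbp2 did not, at 0.65 ± 0.96 (adjusted p = 0.609). Rab10 had 37, 43 and 76 counts in M0 and 39, 54 and 42 in M1 with vehicle, and 40, 40 and 37 in M0 and 47, 29 and 48 in M1 with ISRIB, and its changes of 0.18 ± 0.34 (adjusted p = 0.705) and 0.39 ± 0.35 (adjusted p = 0.387), with vehicle and ISRIB, did not pass while those of Rab10os did. The sign of the vehicle value for Rab10 turned with scaling by library totals (-0.12). Wdr83os (chr8:85080740-85082339, plus strand) is a protein-coding gene for a small membrane protein of the endoplasmic reticulum, and it shares 539 exon bases with Wdr83, a WD-repeat gene. Wdr83os had 11, 16 and 20 counts in M0 and 2, 5 and 9 in M1 with vehicle, and 6, 14 and 20 in M0 and 11, 9 and 10 in M1 with ISRIB. Wdr83 had 55, 47 and 60 counts in M0 and 87, 106 and 89 in M1 with vehicle, and 75, 65 and 68 in M0 and 92, 97 and 80 in M1 with ISRIB. Wdr83 rose by 1.20 ± 0.24 (adjusted p = 0.000215) with vehicle and 0.66 ± 0.24 (adjusted p = 0.0252) with ISRIB, where the values of Wdr83os were -1.16 ± 0.70 (adjusted p = 0.19) and -0.09 ± 0.67 (adjusted p = 0.921). The ISRIB call of Wdr83 was lost with scaling by library totals (0.38, adjusted p = 0.201), with no filter (0.60, 0.237), without ISRIB M0 replicate 2 (0.0985) or 3 (0.0804) and without ISRIB M1 replicate 1 (0.0882) or 2 (0.0566). The share of the pair at Wdr83os was 22.4% in vehicle M0 and 5.31% in vehicle M1. With ISRIB it was 16% in M0 (7.41% to 22.7% over the libraries) and 10.1% in M1 (8.49% to 11.1%), and these ranges overlapped. With the pair's counts summed, the change was 0.91 with vehicle (adjusted p = 0.00186) and 0.57 with ISRIB (adjusted p = 0.0413). Sp3 had 34, 51 and 25 counts in M0 and 22, 37 and 32 in M1 with vehicle, and 40, 51 and 72 in M0 and 16, 22 and 16 in M1 with ISRIB. With ISRIB it was lower in M1, at -1.29 ± 0.38 (adjusted p = 0.00722), against 0.14 ± 0.37 (adjusted p = 0.775) with vehicle, and the ISRIB call was lost without ISRIB M0 replicate 3 (-1.06, adjusted p = 0.0580).

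**Figure D5:**
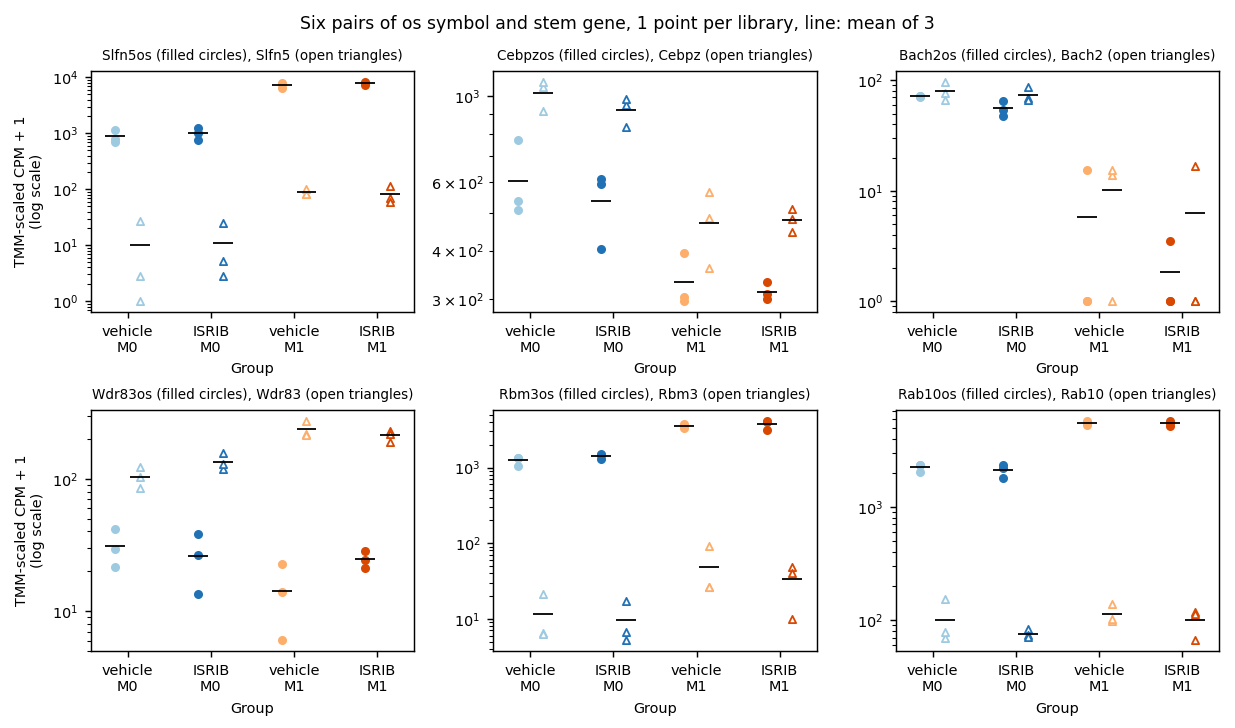
TMM-scaled CPM + 1 (log axis) of 6 os symbols (filled circles) and their stem genes (open triangles) by group, 1 point per library, with a line at the mean of 3. Slfn5os and Slfn5 both stand higher in M1, Cebpzos and Cebpz and Bach2os and Bach2 lower, and Wdr83 rises while Wdr83os is at 2 to 20 counts.

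Some stem genes had counts while the os symbol had almost none. Dgke, a diacylglycerol kinase gene, had 51, 61 and 67 counts in M0 and 148, 138 and 176 in M1 with vehicle, and 72, 80 and 45 in M0 and 161, 168 and 83 in M1 with ISRIB, and Dgkeos had 2 counts in all. Dgke rose by 1.76 ± 0.27 (adjusted p = 5.02e-06) with vehicle and 1.36 ± 0.26 (adjusted p = 0.000144) with ISRIB. Ccpg1, which encodes a receptor for autophagy of the endoplasmic reticulum, had 378, 360 and 432 counts in M0 and 169, 138 and 169 in M1 with vehicle, and 310, 363 and 325 in M0 and 188, 256 and 247 in M1 with ISRIB, and Ccpg1os, whose exons lie apart from it, had 0. Ccpg1 fell by 0.90 ± 0.16 on the log2 scale with vehicle (adjusted p = 3.03e-05), and its change with ISRIB was -0.24 ± 0.15 (adjusted p = 0.215), which passed with scaling by library totals (-0.52, adjusted p = 0.00669). The interaction of ISRIB with polarization did not pass for Ccpg1 (adjusted p = 0.434, the lowest among the stem genes). Of the 17 stem genes that were tested, 8 passed with vehicle, 5 higher and 3 lower, and 7 with ISRIB, 4 higher and 3 lower. The share over all symbols was 44.8% in each contrast, and the counts of stem genes lie near it.

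Ptgs2 and Ptgs2os show a pair without exon overlap. Ptgs2 encodes the inducible cyclooxygenase, and Ptgs2os (chr1:150074873-150099963, minus strand) starts 67 bases from it. Ptgs2 had 0, 0 and 0 counts in M0 and 12, 12 and 12 in M1 with vehicle, and 0, 0 and 0 in M0 and 26, 18 and 10 in M1 with ISRIB. Ptgs2os had 0, 0 and 0 counts in M0 and 4, 6 and 3 in M1 with vehicle, and 0, 0 and 0 in M0 and 1, 1 and 1 in M1 with ISRIB. All 6 M0 libraries were at 0 for both genes, and all 6 M1 libraries had a count at both. Ptgs2os was at least 5.73-fold higher in vehicle M1 than in vehicle M0, taking 3 counts over the group as the floor. It was below the filter of the reported fit. The adjusted p of Ptgs2 by edgeR's quasi-likelihood test was 0.000292 with vehicle and 0.000122 with ISRIB. Ptgs2 was kept by the filter only through the M1 libraries, where it is high, so these p-values add no separate support. With M0 at 0, its fold change has no upper limit.

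The other 11 os symbols with 10 or more counts below the filter had from 11 to 83 counts over the 12 libraries. Of these, 10 were Uchl1os (83), Slc7a6os (75), Tnk2os (43), Fam120aos (41), Fbxl12os (39), Grin1os (26), Nrros (18), Zbtb8os (18), Stamos (13) and Zfp652os (11), each number being summed counts. Slc7a6os encodes a protein for nuclear import of RNA polymerase, and its 75 counts lay at 0 to 16 per library. Its mean level was lower in M1 than in M0 under both treatments, by less than the spread of the libraries. Nrros encodes a carrier of latent TGF-β known from macrophages and microglia, and its 18 counts were spread over 7 libraries at 2 or 6 each. Fam120aos had 3, 13 and 13 counts in M0 and 0, 0 and 1 in M1 with vehicle, and 2, 2 and 6 in M0 and 1, 0 and 0 in M1 with ISRIB, a 21.9-fold higher value in vehicle M0 than in vehicle M1 on 29 against 1 counts, with a 95% exact counting interval of 3.64 to 896. Fam120aos entered the test and was called lower in vehicle M1 in 8 of the 12 fits that left out 1 library. These fits share libraries, and Fam120aos entered them only through vehicle M0, where it is high, so they are not separate support. With no filter Fam120aos was tested and not called. Grin1os had 16 of its 26 counts in vehicle M0 replicate 1. A further 18 os symbols had 1 to 9 counts.

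Levels per kilobase divide by the exon length of the symbol, which is meaningful only where the reads came from that strand, and this was not tested. In vehicle M0, Scpep1os had a level of 6513 ± 148.4 CPM per kilobase (SD, n = 3), Fam219aos 2377 ± 365.1, Tomm6os 1292 ± 102.4, Rbm3os 1288 ± 169.6 and Slfn5os 796.9 ± 203.8. In vehicle M1 the levels were 7340 ± 1073 for Scpep1os, 6660 ± 648.3 for Slfn5os, 3656 ± 238.6 for Rbm3os, 1168 ± 149.3 for Brip1os and 1130 ± 35.39 for Fam219aos. Tomm6os and Rbm3os did not differ beyond their spread in vehicle M0, nor did Scpep1os and Slfn5os or Brip1os and Fam219aos in vehicle M1. In the order of 57 os symbols and 58 stem genes by the mean over the 4 groups, the first stem gene was Cebpz, at place 16. Cebpz had 218.8 ± 20.07 CPM per kilobase in vehicle M0 and 100.9 ± 22.14 in vehicle M1. Slfn5 had 1.461 ± 2.290 in vehicle M0 and 13.88 ± 1.812 in vehicle M1.

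ISRIB was not accompanied by a called change at any os symbol. In M1 cells 0 of the 31 passed by edgeR's quasi-likelihood test (0.00% of all symbols did) or by the DESeq2 Wald test, and 1 had an unadjusted p under 0.05, against 134 of all 2356. That 1 was Zfp85os, with 2, 5 and 16 counts in ISRIB M1 and 2, 1 and 0 in vehicle M1. It was 7.26-fold higher in ISRIB M1, on 23 against 3 counts, with a 95% exact counting interval of 2.19 to 37.8 and an adjusted p of 0.806. The os changes ran from -2.30 to 2.72 on the log2 scale, with a median size of 0.15, against 0.28 for all symbols. The ranges of ISRIB M1 and vehicle M1 did not overlap for 1 of the 31, Abhd11os (3.23%, against 11.6% of all symbols).

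In M0 cells 0 of the 31 passed (0.00% of all symbols did), 0 had an unadjusted p under 0.05, against 143 of all symbols, and the DESeq2 Wald test called 0 os symbols and 3 others. The changes ran from -0.36 to 1.50, with a median size of 0.16, against 0.26 for all symbols. Nudt12os had the lowest adjusted p, at 1.50 ± 0.78 (adjusted p = 0.845), with 11, 6 and 14 counts in vehicle M0 and 22, 44 and 23 in ISRIB M0. Its ranges did not overlap, nor did those of Far1os, Ppifos and Bach2os, 4 of 31 in all (12.9%, against 11.3% of all symbols). For the interaction of ISRIB with polarization 0 of the 31 passed (0.00% of all symbols), and DESeq2 called 0. Ggnbp2os, at -0.91 ± 0.41 (adjusted p = 0.666), and Zfp85os, at 2.86 ± 1.36 (adjusted p = 0.684), had an unadjusted p under 0.05, against 167 of all symbols.

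The stretch around the RefSeq start of each os gene was searched for motifs of factors known to act downstream of LPS and IFN-γ. RefSeq promoters of GRCm38.p6, from 250 bases before to 50 after the start, were found for 105 of the 129 os symbols and 28 of the 31 tested. Of the 8 os symbols that were higher in vehicle M1, 7 had a promoter (Slfn5os, Rab10os, Rbm3os, Phtf1os, Ppifos, Acss2os and Ggnbp2os), and of the 11 that were lower, 10 had one. Motifs were searched on both strands. The core of the interferon-stimulated response element, GAAA, any 2 bases and GAAA again, was in 4 of the 105 and in 1 of the 7, against 3.99% of all 27025 symbols with a promoter. The STAT site TTCNNNGAA was in 15 of the 105 and in 3 of the 7 (Rab10os, Acss2os and Ppifos), against 9.55%. The AP-1 site TGANTCA was in 6 of the 105 and in 1 of the 7 (Ppifos), against 8.97%. Among the 10 that were lower, the numbers with these motifs were 0, 1 (Zfp85os) and 1 (Dnmt3aos). A match is only a run of letters, and these shares were not tested. The promoter of an os gene bears on its counts only where the reads came from the os strand, which was not tested either. The Rab10os promoter (chr12:3235541-3235840, plus strand) is printed because it alone of the 7 had the first motif. The RefSeq start of Rab10os lies 287 bases downstream of the GENCODE start, so the whole window lies inside the gene as GENCODE has it. For 29 windows of located, tested os symbols, the RefSeq and GENCODE starts were at most 50 bases apart in 19. Its capitals mark the paired GAAA, here as its reverse complement, at -222 from the RefSeq start and TTCNNNGAA at -237 and -106.
Rab10os promoter: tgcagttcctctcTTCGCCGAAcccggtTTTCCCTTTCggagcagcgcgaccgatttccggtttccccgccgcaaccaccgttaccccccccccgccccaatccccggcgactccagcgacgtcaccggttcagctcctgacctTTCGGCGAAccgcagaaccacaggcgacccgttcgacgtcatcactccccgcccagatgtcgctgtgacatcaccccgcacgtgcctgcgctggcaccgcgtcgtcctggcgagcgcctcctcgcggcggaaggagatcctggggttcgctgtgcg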

How the data were processed

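Per the labels' protocols, polyadenylated RNA of 12 macrophage samples was made into strand-specific TruSeq libraries and sequenced on a NovaSeq. The authors deposited whole-number counts per gene symbol for the 12 samples, whose columns were matched to samples by the sample descriptions, and columns of other samples numbered 0. The authors also deposited log2 values, which were, from the values themselves, the log2 of the count over a size factor plus 1, and these were not tested. The submitters' processing notes name mm10, FastQC, HTSeq and DESeq2 with no versions. The aligner, annotation and strand setting are not given in the sources used here. That setting decides which of 2 overlapping genes on opposite strands a read is counted for.

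Counts as deposited were fitted with edgeR 4.0.16 in R 4.3.3 over all 12 samples, with a mean per group, TMM scaling and filterByExpr (minimum count 10, minimum total 15). The 5 contrasts were tested by quasi-likelihood and adjusted by Benjamini-Hochberg over 2356 symbols at 0.05. Each SE was derived from the test statistic of its log2 fold change. The fit was tested on simulated data. Positions and overlaps came from GENCODE M21, promoters from RefSeq (GRCm38.p6). Counting intervals are exact at 95%, and intervals and floors cover counting error only.

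The symbols and lists were chosen with earlier results of these data known. Every os symbol kept by the filter was named with its stem gene, those below it with at least 10 counts by their sum, and those with fewer only where the stem gene passed in a polarization contrast. The values of 1 os symbol and of 1 marker gene are not reported here. Replicates of a group differed beyond sampling noise, so no library was counted as a duplicate. Alternatives were DESeq2 1.42.0 size factors and its Wald test, no filter, a mean of at least 50 counts, the replicate block, only the compared groups, counts of each pair summed, and leaving out each sample. Scaling by library totals was added after seeing the data.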

Additional observations from a re-analysis of the deposited data

How the results depend on the processing

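In vehicle M1 against vehicle M0 the number of os symbols called was 19, and 16 to 19 under other settings without pair sums. Leaving out a sample gave 17 to 20. In ISRIB M1 against ISRIB M0 it was 20, and 16 to 21, with 18 to 21 leaving out a sample. Each 16 came with a mean of at least 50 counts, where 3 (vehicle) and 4 (ISRIB) called os symbols were not tested. Summing the counts of each pair gave 23 and 24, but such a call includes the stem gene's counts. It added Ccpg1os (vehicle), Sp3os (ISRIB), and Dgkeos, Ptgs2os and Wdr83os (both). With a mean of at least 50 counts, which tests fewer symbols, 530 of all symbols were called with vehicle and 523 with ISRIB, in place of 1055 each. Os symbols called for ISRIB or its interaction were 0 under every setting. Over all symbols, ISRIB in M0 gave 3 calls by the DESeq2 Wald test and 10 with no filter, in place of 0, the interaction gave 9 with no filter, and the cause was not tested. Leaving out a sample gave 0 to 1 calls over all symbols for ISRIB in M1 (1 without ISRIB M1 replicate 2), 0 to 6 in M0 (6 without ISRIB M0 replicate 1, 2 without replicate 2) and 0 to 4 for the interaction (4 and 1 without those libraries).

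Whether the replicate numbers pair the samples is not stated in the labels. Deviations of same-numbered libraries correlated by -0.0462 to 0.0949. These values cannot decide it, since libraries with different numbers were not compared. With the replicate block the os calls were 19 and 20, the calls over all symbols for the interaction were 3 in place of 0, and Wdr83os with ISRIB was 0.05 in place of -0.09. It changed no other call of an os symbol or stem gene named here, and Man2c1 and Ggnbp2 were not looked at under it.

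Scaling by library totals moved the median log2 fold change of all symbols to -0.29 with vehicle and -0.30 with ISRIB. It reversed Scpep1os to -0.13 and -0.18 and, with vehicle, Sp3 to -0.16 and Rab10 to -0.12. The summed CPM of the os symbols was then 26620 in M0 and 36590 in M1 with vehicle, and 26760 and 36710 with ISRIB, in place of 24030, 40740, 24180 and 40530. That of the stem genes was 2803, 1989, 2650 and 2002, in place of 2530, 2212, 2391 and 2209, in the same order. Summing the counts of each pair gave Lppos 0.01 and Wdr83os 0.91 with vehicle and Wdr83os 0.57 with ISRIB, in place of -0.50, -1.16 and -0.09, since the stem gene is then in the sum.

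Leaving out a sample reversed only values that had not passed. The ranges with vehicle were -0.40 to 0.21 for Sp3os, -1.44 to 0.08 for Lppos, -0.05 to 0.42 for Sp3 and -0.01 to 0.62 for Rab10. With ISRIB they were -0.35 to 0.22 for Ggnbp2os, -0.16 to 0.01 for Uckl1os, -0.42 to 0.30 for Wdr83os and -1.25 to 0.30 for Zfp85os. Values that had passed reversed in 0 of 1048 recomputations. These refit the same libraries, so they are not independent and a change of sign was unlikely. Of 620 values of single genes under the other settings, 600 kept their direction and call. Of the 98 os symbols below the filter, 68 were at 0 in all libraries, and the other 30 were tested with no filter, where none was called. Depth limits what these show, since 1 count in a library stood for 1.79 to 2.57 CPM.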
